A study of Mus musculus with 236 samples.

Results

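Cdh1, Cdh2, Jam2, Epcam, Cldn6, Tjp1, Ctnna1 and Ctnnd1 encode proteins that hold neighbouring cells together, and their RNA was followed in mouse embryonic stem cells at day 0.5 and day 2.5 of differentiation. These 8 genes were taken by name from the 39300 genes of the authors' expression table, and all 8 had at least 20 unique molecular identifiers (UMIs, tags that count single RNA molecules) over both days. The cells came from 1 female line, derived from blastocysts of a C57BL/6J mother and a CAST/EiJ father. Both groups share this genotype and carried no further allele that the labels state. Stem cells were kept in serum with LIF, a MEK inhibitor and a GSK3 inhibitor, and for differentiation these 3 agents were removed and the cells plated on fibronectin. The study asked how chromatin and RNA change together early in random X inactivation, and read both from each cell with HiRES. The 236 libraries, of 1 or 2 cells each, gave 201 cells at day 0.5 and 205 cells at day 2.5 in the expression table.

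Separate cultures are not named in the labels. Each day therefore counts as 1 sample, and no difference has a p-value or a check by replicate cultures. Levels are UMIs summed over the cells of a day and scaled to a common total (CPM). All intervals are 95% and cover counting error only, which is narrower than the spread between cultures can be. A change in RNA per cell and a change in the mix of cells cannot be told apart in summed UMIs. Shares of cells with a UMI do not separate them either, since at these counts a share also follows the level. Median depth was 13670 UMIs per cell at day 0.5 and 15796 at day 2.5. For this gap, shares of cells with a UMI are also given with each cell drawn down to 5000 UMIs, a step that 7 cells of either day were too shallow for. The metadata sort cells under 3 labels of unstated meaning, here called batches. Day 0.5 fell in batches 1 and 2 and day 2.5 in batches 2 and 3, so that batch 2 alone, with 121 and 122 cells, spans both days. With so few batches per day, their values can fall apart by day without a difference between the days. How many of all genes do so is not given, so batch values below are a description. No cell name occurred in more than 1 library. All 8 pluripotent stem cell markers had UMIs on both days. Their summed level was 760 CPM at day 0.5 and 440 CPM at day 2.5. The summed level of 8 naive pluripotency markers was 1030 CPM at day 0.5 and 51.2 CPM at day 2.5, and that of 6 formative markers was 975 and 2593 CPM. The part of this shift in the differences of the junction genes was not tested. Feeder fibroblast markers summed to 8.66 and 5.02 CPM.

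Adherens junctions are built by cadherins, membrane proteins that bind the same cadherin on the next cell and hold the actin cytoskeleton through catenins. E-cadherin, from Cdh1, is the main cadherin of naive stem cells and of epithelia, and N-cadherin, from Cdh2, that of many neural and mesenchymal cells. Tight junctions seal the space between cells of an epithelium with claudins, occludin and junctional adhesion molecules, which are anchored inside the cell by scaffolds such as ZO-1. Release from LIF and the inhibitors starts the path from naive to formative and primed pluripotency, along which embryonic cells become a polarised epithelium.

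Promoters were at hand for only 4 of the 8 genes, and sequences are shown for the 2 of these that hold the E-box CAGGTG. Zeb and Snail repressors bind these letters, and both repressors of the Zeb family differ in level between the days as given further on. The sequences are the 250 bases before the RefSeq transcript start (GRCm38.p6), 5′ to 3′ along the gene. CAGGTG or its reverse complement CACCTG is in capitals. The Epcam stretch lies at chr17:87635729-87635978 on the plus strand, and that of Cldn6 at chr17:23679115-23679364 on the plus strand.
Epcam: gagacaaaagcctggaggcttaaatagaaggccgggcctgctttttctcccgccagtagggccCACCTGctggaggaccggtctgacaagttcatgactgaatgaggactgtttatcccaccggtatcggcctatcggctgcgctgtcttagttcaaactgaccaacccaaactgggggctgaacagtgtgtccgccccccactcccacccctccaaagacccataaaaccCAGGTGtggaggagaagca
Cldn6: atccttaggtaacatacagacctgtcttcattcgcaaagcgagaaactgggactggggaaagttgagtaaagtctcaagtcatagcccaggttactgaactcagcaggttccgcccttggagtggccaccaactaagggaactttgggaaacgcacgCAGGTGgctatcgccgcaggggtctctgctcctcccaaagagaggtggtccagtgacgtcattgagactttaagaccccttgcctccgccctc
The RefSeq table held 5 promoters of 4 of the 8 genes. It held none of Cdh1, Cdh2, Jam2 and Ctnna1, which were therefore not searched. Epcam had 2 of these E-boxes and Cldn6 had 1, and neither the Tjp1 promoter nor the 2 of Ctnnd1 held one. Of 32851 promoters of this length in the table, 17.2% held at least 1. The GC box GGGCGG, also searched on both strands and free to overlap other motifs, was found in the promoters of Tjp1 (2), Cldn6 (2) and Epcam (1), and in 32.7% of all promoters. A match shows the letters and not a bound site.

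Between the days the 8 genes went different ways. Jam2 was nearly gone at day 2.5, Cdh2 and Ctnna1 were lower, Cldn6 appeared at a low level, Ctnnd1 was higher, and Cdh1, Epcam and Tjp1 were higher by less than 1.5-fold. A call, higher or lower, needed a CPM ratio of at least 1.5 or its inverse, 20 UMIs or more, and the same direction in cells with the letter A and with the letter B in their names. By this rule 2 members were higher, 3 lower and 3 neither. Within batch 2 the counts were the same but not the genes, since Cldn6 had fewer than 20 UMIs there and Epcam passed 1.5-fold. Over all 13779 genes with 20 UMIs or more, 19.4% were called higher and 20.4% lower. The median change of the members, as log2((CPM day 2.5 + 5)/(CPM day 0.5 + 5)), was 0.41, with a range from -5.55 to 1.09, and that of all genes was -0.065. Under median-ratio scaling, which moved the median of all genes to 0.070, Epcam and Tjp1 also passed 1.5-fold and 4 members were called higher.

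**Figure D1:**
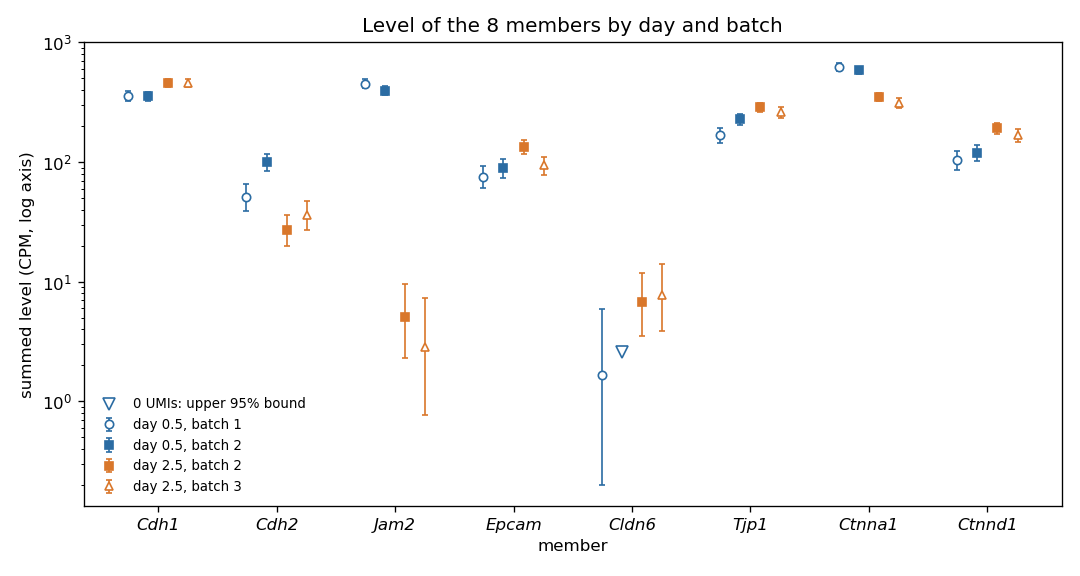
Summed level of each member in CPM, on a log axis, by day and batch, with 95% Poisson intervals as bars. Squares mark batch 2, which holds both days, and the open triangle pointing down marks 0 UMIs of Cldn6 in batch 2 at day 0.5, drawn at its upper bound. Jam2 lies near 400 CPM in both day 0.5 batches (451 and 396 CPM) and at 5.07 and 2.83 CPM in both day 2.5 batches, while Cdh1 differs little.

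Cdh1 (chr8:106603350-106670247, GRCm38), which encodes E-cadherin, was at 355 CPM at day 0.5 (interval 333 to 379) and 459 CPM at day 2.5 (436 to 483). Both day 2.5 batches, at 457 and 461 CPM, lay above both day 0.5 batches, at 357 and 353 CPM. Its level was thus 1.29-fold higher at day 2.5 (1.19 to 1.40), short of the 1.5-fold that defines a call, and 1.29-fold within batch 2. At least 1 Cdh1 UMI was found in 87.1% of day 0.5 and 94.6% of day 2.5 cells. After thinning the shares were 74.2% and 82.8%, a difference of 8.60 percentage points (0.463 to 16.6). A cell had a median of 3 Cdh1 UMIs (0 to 34.5) at day 0.5 and 6 (0 to 36) at day 2.5. Cdh1 RNA was thus detected in most cells of both days, with a wide spread from cell to cell.

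Cdh2 (chr18:16588877-16809246), which encodes N-cadherin, went the other way. It was at 77.2 CPM at day 0.5 (66.98 to 88.5) and 31.1 CPM at day 2.5 (25.3 to 37.8). By batch it was at 51.01 and 99.3 CPM at day 0.5 and at 27.04 and 36.1 CPM at day 2.5. The groups of batches did not overlap, but the 2 batches of day 0.5 differed 1.95-fold from each other (1.44 to 2.67). The level at day 2.5 was 0.403 of that at day 0.5 (0.313 to 0.514), and 0.272 of it within batch 2 (0.192 to 0.380). Cells with a Cdh2 UMI made up 38.3% at day 0.5 and 21.95% at day 2.5, and after thinning 24.7% and 13.6%. In letter B cells alone, with 25 and 14 Cdh2 UMIs, the ratio was 0.577 and its interval held 1 (0.277 to 1.15).

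Cdh2 UMIs were unevenly spread among cells. The 10 cells with the most held 36.1% of all Cdh2 UMIs at day 0.5 and 48.5% at day 2.5, against 18.6% and 14.3% for Cdh1. Such a share also rises as counts fall. The mean per cell was 1.02 and 0.483 UMIs for Cdh2, against 4.69 and 7.14 for Cdh1. After thinning, the variance of Cdh2 over cells was 1.85 times its mean at day 0.5 and 1.61 times at day 2.5, where sampling alone gives 1 for equal cells. For Cdh1 it was 1.92 and 1.70 times. At an equal relative spread this ratio rises with the mean, so it does not rank the 2 genes by unevenness. The thinned mean was 0.392 and 0.202 UMIs for Cdh2, against 1.88 and 2.25 for Cdh1. Since the ratios of both genes are above 1, the counting intervals of subsets of cells are too narrow for differences between cells. A single day 0.5 cell, of the class Late-S in batch 2, held 16 Cdh2 UMIs, and the level of the day without it was 71.7 CPM.

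Per cell, the count of cells with both Cdh1 and Cdh2 lay close to the product of their shares. Since Cdh1 was found in most cells, this count has little room to differ from the product and says little about a link. At day 0.5, 71 of 201 cells (35.3%) had UMIs of both, 6 of Cdh2 only and 20 of neither, and the rest had Cdh1 only. The product of both shares is 67.04 cells. At day 2.5, 42 of 205 cells (20.5%) had both, 152 Cdh1 only, 3 Cdh2 only and 8 neither, and the product is 42.6 cells. Cells with Cdh2 but without Cdh1 were few on both days, as were all cells without Cdh1, 26 and 11. At day 0.5 Cdh2 was found in 40.6% of cells with Cdh1 and 23.1% of those without. At day 2.5 the shares were 21.6% and 27.3%. These shares also follow depth. In cells thinned to 5000 UMIs they were 26.4% and 20% at day 0.5, and 13.4% and 14.7% at day 2.5. The intervals overlap in each pair, so the shares do not settle whether the genes go together. Cdh1 was at 357 CPM in day 0.5 cells with a Cdh2 UMI and 354 CPM in those without, a ratio of 1.01 (0.885 to 1.15). At day 2.5 the values were 477 and 454 CPM, a ratio of 1.05 (0.925 to 1.19). The level of Cdh1 was not detectably different between cells with and without Cdh2 UMIs at this depth. Over thinned cells Pearson's r between Cdh1 and Cdh2 was -0.0032 in 194 day 0.5 cells and 0.063 in 198 day 2.5 cells, a description of cells that share libraries and batches. Over all 28 pairs of members r ranged from -0.13 to 0.21 at day 0.5 and from -0.060 to 0.19 at day 2.5. Sampling at such low counts pulls r toward 0, so these values do not show that links are absent. The 0.21 is that of Cldn6 and Ctnna1, and thinned Cldn6 was found in 1 of 194 cells.

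**Figure D2:**
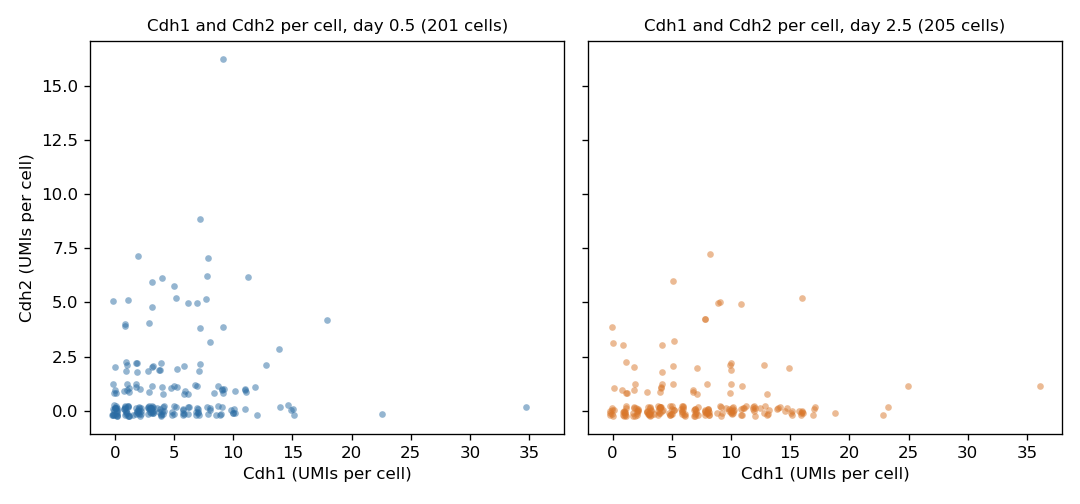
Cdh2 against Cdh1 in UMIs per cell, 1 point per cell, with a small random shift so that equal values do not hide each other. Most cells lie on the line without Cdh2 on both days, and cells with Cdh2 spread over the whole range of low and middle Cdh1 values.

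Jam2 (chr16:84774123-84826380) encodes a junctional adhesion molecule of the immunoglobulin family, and it showed the widest difference of the 8. It was at 421 CPM at day 0.5 (397 to 446) and 4.08 CPM at day 2.5 (2.17 to 6.98), from 1118.5 and 13 UMIs. Both batches of day 0.5, at 451 and 396 CPM, lay far above both of day 2.5, at 5.07 and 2.83 CPM. The level at day 0.5 was 103.2-fold that at day 2.5 (60.1 to 194). Among the 13779 genes with 20 UMIs or more, its change of -5.55 was the second lowest. A Jam2 UMI was found in 168 of 201 day 0.5 cells (83.6%) and in 8 of 205 day 2.5 cells (3.90%, 1.70 to 7.54), and after thinning in 71.6% and 1.01%. Genes of cells that the culture should lack, such as Cdh5, Ptprc, Alb and Myh6, had UMIs in at most 3.41% of cells for 9 of 10 genes listed. The tenth, Cldn18, was in 14.4% and 8.29% of cells and is no clean background. The interval of the Jam2 share of cells at day 2.5 holds the highest share of these 9 genes.

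Of the 13 Jam2 UMIs at day 2.5, 6 came from 1 cell, and 7 other cells had 1 each. That cell, with 14548 UMIs in all, was the only day 2.5 cell that the authors placed in their cluster 2, which held 186 of the 201 day 0.5 cells. It also had 1 UMI of Esrrb, 3 of Zfp42 and 2 of Nr5a2, factors of naive pluripotency, and 0 of the formative marker Fgf5. These values are a description of 1 cell, picked for its Jam2 count. Without it Jam2 was at 2.21 CPM at day 2.5 and 191-fold higher at day 0.5. At day 0.5 Jam2 also varied between the authors' clusters. It was at 435 CPM in the 186 cells of cluster 2 and at 107.2 CPM (55.4 to 187) in the 15 cells of cluster 4, whose median depth was 5818 UMIs. A RefSeq lncRNA, Gm46557, overlaps Jam2 and has no row in the expression table, so its reads may be counted with Jam2.

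Epcam, Cldn6 and Tjp1, of the epithelial surface and its tight junctions, had higher levels at day 2.5, and only Cldn6 met the rule for a call. Epcam (chr17:87635979-87651127), a cell surface glycoprotein of epithelia and stem cells, was at 82.5 CPM at day 0.5 (71.9 to 94.1) and 115.97 CPM at day 2.5 (104.6 to 129). By batch it was at 74.9 and 88.9 CPM at day 0.5 and at 134 and 93.9 CPM at day 2.5. The batches of the 2 days did not overlap, but batch 3 stood only slightly above batch 2 of day 0.5. The ratio was 1.41 (1.19 to 1.67) over all cells and 1.50 (1.21 to 1.88) within batch 2. The 2 day 2.5 batches differed from each other by a ratio of 0.703 (0.562 to 0.870). In letter B cells, on 17 and 54 UMIs, the ratio was 3.27 (1.87 to 6.02), against 1.27 in letter A. The share of cells with an Epcam UMI was 50.7% and 71.7%, and after thinning 30.4% and 39.9%.

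Cldn6 (chr17:23679348-23682446), a claudin of embryonic epithelia, had 2 UMIs at day 0.5, both in 1 cell of batch 1, and 23 UMIs in 22 cells at day 2.5. Its levels were 0.753 CPM (0.0912 to 2.72) and 7.22 CPM (4.58 to 10.8), a ratio of 9.59 (2.37 to 83.9). Within batch 2 it had 0 UMIs in 121 day 0.5 cells and 12 UMIs in 12 of 122 day 2.5 cells. The share of cells with a UMI at day 2.5, 10.7% (6.85 to 15.8), was above the 0.498% of day 0.5 and the 3.41% of 9 background genes, but its interval holds the 8.29% of Cldn18, itself a claudin. After thinning it was 5.05% (2.45 to 9.09) against 0.515%, and that interval also holds 3.41%. Cldn6 RNA was thus detected in few cells even at day 2.5. In the authors' clusters of day 2.5 cells it was at 4.46 CPM in cluster 0 and 10.5 CPM in cluster 1, with intervals that overlap (1.93 to 8.80 and 5.56 to 17.9).

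Tjp1 (chr7:65296165-65527850), which encodes the scaffold ZO-1, was at 200 CPM at day 0.5 (184 to 218) and 275 CPM at day 2.5 (257 to 294). By batch it was at 167 and 228 CPM at day 0.5 and at 286 and 261 CPM at day 2.5. The day 2.5 batches lay above those of day 0.5, whose own values differed 1.36-fold (1.14 to 1.62). The ratio was 1.38 (1.23 to 1.53) over all cells and 1.26 (1.09 to 1.45) within batch 2. In letter A cells it was 1.47 (1.31 to 1.66). In letter B cells it was 0.984 (0.742 to 1.32), at 294 and 290 CPM, and this interval holds 1, so letter B gives no direction. The thinned share of cells with a Tjp1 UMI was 52.1% at day 0.5 and 76.3% at day 2.5, a difference of 24.2 percentage points (14.8 to 33.04).

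The 2 catenins differed in opposite directions. Ctnna1 (chr18:35118902-35254776), alpha-catenin, which ties the cadherin complex to actin, was at 603 CPM at day 0.5 (573 to 633) and 334 CPM at day 2.5 (314 to 354). By batch it was at 621 and 587 CPM and then at 350 and 313 CPM. The groups of batches did not overlap, and the level at day 2.5 was 0.554 of that at day 0.5 (0.512 to 0.599). Nearly all cells still had a UMI, 98.0% and 96.1%, and after thinning the shares were 92.3% and 77.3%. Lrrtm2, which lies inside Ctnna1, had 0 UMIs on both days. A second overlapping gene, Gm46617, has no row in the table.

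Ctnnd1 (chr2:84587096-84658977), p120-catenin, which binds the cadherin near the membrane and keeps it at the surface, was at 111.7 CPM at day 0.5 (99.5 to 125) and 181 CPM at day 2.5 (166 to 196). By batch it was at 103.4 and 118.7 CPM and then at 191 and 167 CPM, again without overlap. The ratio was 1.62 (1.40 to 1.87) over all cells and 1.61 (1.34 to 1.95) within batch 2. Counting any value above 0, fractions of a UMI included, 80.6% and 93.7% of cells had Ctnnd1. The share of cells with a UMI, a value of at least 1, was 63.7% and 86.3%. After thinning it was 46.4% and 55.1%, and the interval of that difference, -1.23 to 18.3 percentage points, holds 0. The thinned ratio of summed levels was 1.37, below the 1.5-fold of a call.

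**Figure D3:**
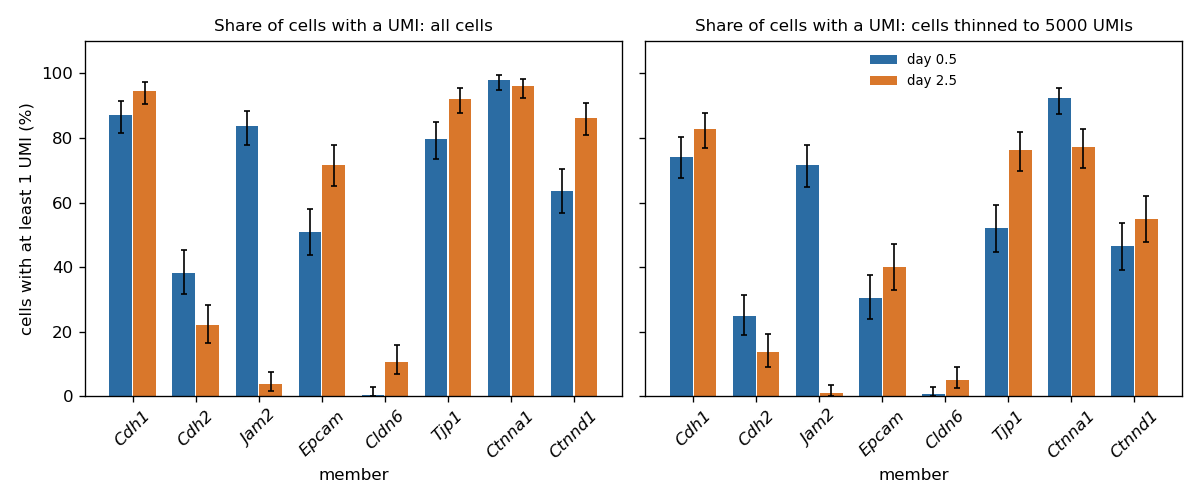
Share of cells with at least 1 UMI of each member, in percent, for all cells on the left and for cells thinned to 5000 UMIs on the right, with exact 95% binomial intervals. Jam2 is the member whose share differs most between the days (83.6% and 3.90%). Ctnna1 is found in nearly all cells of both days and differs only after thinning (92.3% and 77.3%).

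Levels of different genes are set side by side here as CPM per kb of the gene's span. This scale was taken because 26.3% of gene UMIs at day 0.5 and 24.2% at day 2.5 were on exons. Whether counts rise with the span was not tested, and the order of the genes depends on this choice. By CPM alone, Ctnna1 (603) was above Jam2 (421) at day 0.5. At day 0.5 Jam2 was first with 8.06 CPM per kb. Epcam (5.44) and Cdh1 (5.31) followed with overlapping intervals, then Ctnna1 (4.43), whose interval does not overlap that of Cdh1, and Ctnnd1 (1.55). Tjp1 (0.864), Cdh2 (0.350) and Cldn6 (0.243) were lowest, and the interval of Cldn6 overlaps both others. At day 2.5 Epcam (7.66) and Cdh1 (6.86) were first, again with overlapping intervals. Ctnnd1 (2.51), Ctnna1 (2.46) and Cldn6 (2.33), which is a short gene, were not separated beyond counting error. Tjp1 (1.19), Cdh2 (0.141) and Jam2 (0.0781) came last, the last 2 with overlapping intervals. Jam2 thus went from the first to the last place among the 8 on this scale.

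Within a day, the cadherins and Jam2 also differed between the authors' cell cycle classes. At day 0.5 Cdh2 was at 123 CPM in 41 cells classed G1, 78.8 in 32 Early-S, 35.8 in 87 Mid-S and 170 in 20 Late-S cells. Of these 4 classes Mid-S was lowest in each batch of that day, at 32.3 CPM in batch 1 and 40.0 CPM in batch 2. Without the cell with 16 UMIs, Late-S was at 128 CPM. At day 2.5 Cdh2 was at 56.2 CPM in 82 G1 cells, 18.6 in 62 Mid-S and 3.90 in 17 Late-S cells, the last from 1 UMI. Without its 1 cell with 7 UMIs, Mid-S of that day was at 12.2 CPM. Jam2 at day 0.5 was at 546 CPM in G1 (483 to 615) and 329 CPM in Mid-S (297 to 362). Cdh1 at day 2.5 was at 622 CPM in 15 Early-S cells (528 to 729) and 418 CPM in Mid-S (380 to 458). Within batch 2 of that day the intervals overlap, at 522 CPM (403 to 666) and 420 CPM (373 to 471). At day 0.5 the order of Early-S and Mid-S differed between batches. Cdh1 was at 215 and 432 CPM in batch 1, and at 443 and 266 CPM in batch 2. The class mix differed between the days, with 41 and 82 G1 cells and 87 and 62 Mid-S cells. With G1, Early-S, Mid-S and Late-S given equal weight, Cdh2 was at 101.9 and 24.7 CPM, a ratio of 0.243, and Cdh1 at 346 and 512 CPM, a ratio of 1.48.

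**Figure D4:**
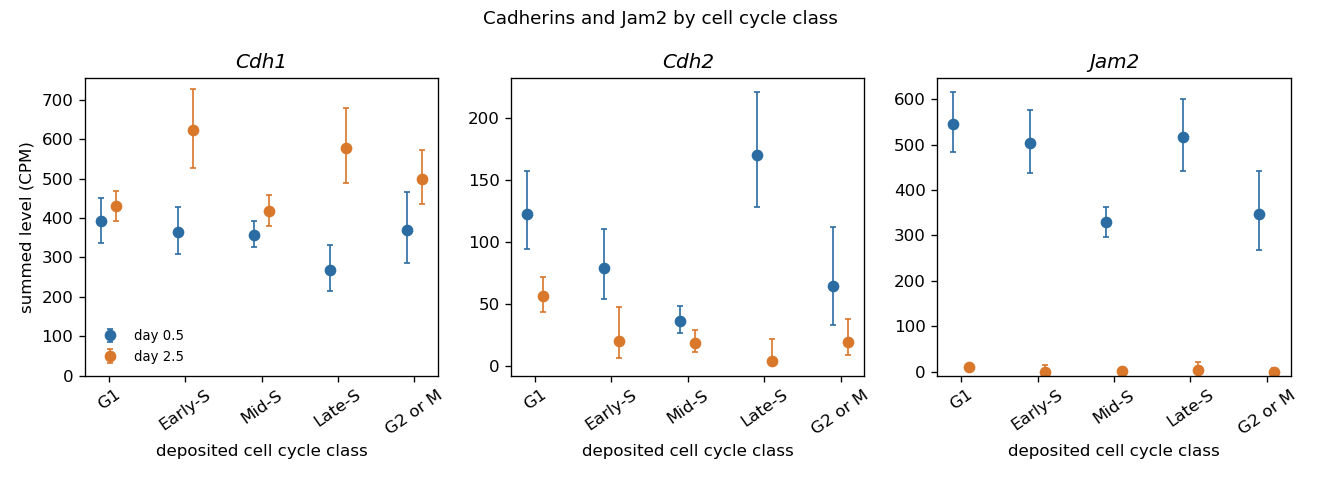
Summed level in CPM of Cdh1, Cdh2 and Jam2 by the authors' cell cycle class and day, with 95% Poisson intervals. Cdh2 and Jam2 are lower at day 2.5 in each of the 5 classes, although the intervals of Cdh2 overlap in Mid-S and in G2 or M. Cdh1 is 391.7 and 430 CPM in G1, with overlapping intervals, and 269 and 577 CPM in Late-S.

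At day 2.5, cells of the authors' cluster 0 had Cdh2 at 41.3 CPM (32.4 to 51.8) and those of cluster 1 at 17.7 CPM (11.1 to 26.8). Ctnnd1 was at 163 CPM (144 to 182) in cluster 0 and 204 CPM (179 to 230) in cluster 1, with intervals that overlap. Cdh1, at 454 and 463 CPM, and Ctnna1, at 339 and 331 CPM, were alike within counting error. The authors' clusters were made from expression, so these values describe the clusters and are not a test of them. Cells in the authors' allele table had Cdh1 at 492 CPM (460 to 524) at day 2.5, and cells outside it at 413 CPM (379 to 449).

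The genes around the members were taken from 16 lists of cadherin, junction and related genes. Besides the members, 45 of their genes with 20 UMIs or more were called higher, 21 lower and 47 neither, beside 19.4% higher and 20.4% lower over all genes. Their median change was 0.27 against -0.065 over all genes. All 66 called genes went the same way within batch 2. Its 121 and 122 cells are among those that made the calls, so this is no separate check. Counts per list include the members. The lists were written with earlier results of these data known, and their counts are a description.

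Of 17 cadherins measured, 8 were higher and 4 lower, with a median change of 0.37. The 3 with the highest changes were type II cadherins, known mainly from neurons. Cdh12 was at 21.1 and 309 CPM, Cdh10 at 14.7 and 195 CPM, and Cdh9 at 12.8 and 93.8 CPM. Cdh4, the R-cadherin of the same class as N-cadherin, was at 1412 and 282 CPM, so the 2 related genes Cdh2 and Cdh4 were both lower. Cdh3, P-cadherin, was at 59.3 and 90.1 CPM, a ratio of 1.52 (1.24 to 1.85). In the list of protocadherins and their large relatives, 7 of 12 were higher and 0 lower. Fat3 was at 16.2 and 316 CPM and Fat1 at 259 and 630 CPM.

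Of 14 catenins and adherens junction partners, 2 were higher and 5 lower, with a median change of -0.22. Ctnna2, the neural form of alpha-catenin, was at 23.5 and 227 CPM while Ctnna1 was lower. Lima1, an actin-binding partner of alpha-catenin, was at 319 and 152 CPM, and Ctnnal1 at 173 and 103.4 CPM. Plekha7, which links p120-catenin to microtubules, was at 920 and 1067 CPM and called neither. Of 5 nectins and afadin genes measured, 0 were higher and 1 lower. That gene, Nectin1, was at 114.6 and 55.7 CPM.

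The other members of the JAM family did not all go the way of Jam2. Of 5 measured, 3 were higher and 2 lower. F11r, the junctional adhesion molecule A of epithelia, was at 59.3 and 164 CPM, Jam3 at 50.1 and 87.9 CPM, and Cxadr at 43.3 and 70.3 CPM. Clmp was lower with Jam2, at 121 and 58.5 CPM, a ratio of 0.483 against 0.00969 for Jam2. Esam was also lower, at 4.89 and 0.314 CPM, but its 13 and 1 UMIs are under the minimum for a call. Of the claudins, 4 of 20 in the table had 20 UMIs or more, and Cldn6 was the only one called. Cldn12 was at 15.2 and 14.1 CPM.

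The occludin family and the tight junction scaffolds held more calls higher than lower. The claudins, with 1 call higher, 0 lower and a median change of -0.32 over 4 genes, are too few for a contrast. All 3 genes of the occludin family were called higher. Ocln, occludin itself, was at 4.33 and 27.5 CPM. Marveld3 had 0 UMIs at day 0.5 and 51 at day 2.5, which makes it at least 14.2-fold higher against a floor of 3 counts per day. Of 14 tight junction scaffolds, 9 were higher and 1 lower, with a median change of 0.95. Cingulin, from Cgn, was at 15.8 and 95.6 CPM. Patj and Mpp5, partners in the Crumbs polarity complex, were at 45.4 and 368 CPM and at 64.2 and 110.6 CPM. Magi1 was at 983 and 2127 CPM and Magi2 at 163 and 908 CPM.

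Desmosomes and gap junctions gave mixed counts. Of 4 desmosome genes, 3 were higher. Pkp2 was at 23.3 and 78.8 CPM, Dsp at 3.01 and 18.05 CPM, and Dsc2, with 0 and 25 UMIs, was at least 6.95-fold higher against the same floor. Dsg2, at 59.1 and 34.8 CPM, was not called because the letters disagreed. With Dsc2 at its floor, the median change of this list was 1.30 in place of 1.44. Of 5 gap junction genes, 2 were higher and 2 lower, with connexin genes on both sides. Gja1 was at 90.4 and 217 CPM and Gjc1 at 250 and 76.4 CPM. Of 13 polarity genes, 4 were higher and 1 lower. Pard3 was at 505 and 872 CPM and Llgl2 at 57.8 and 14.6 CPM.

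The factors known to repress Cdh1 did not go 1 way. Of 5 measured, 2 were higher and 2 lower. Zeb1 was at 394 and 20.4 CPM, and its paralog Zeb2 at 3.01 and 62.1 CPM, so Zeb1 was 19.3-fold higher at day 0.5 and Zeb2 20.6-fold higher at day 2.5. Tcf4 was at 254 and 632 CPM and Klf8 at 158 and 84.1 CPM. Of 7 epithelial transcription and splicing factors, 2 were higher and 3 lower. The splicing factor Esrp1 was at 143 and 288 CPM, and Klf5, which also maintains naive pluripotency, at 137 and 11.5 CPM. Grhl2 was at 427 and 321 CPM and called neither. Of 8 genes of cadherin shedding and turnover, 1 was higher and 1 lower. Adam10, which sheds E-cadherin and N-cadherin, was at 148 and 103.6 CPM and called neither. Of 4 mesenchymal genes, 0 were higher and 2 lower. Fn1, fibronectin, was at 449 and 88.98 CPM.

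**Figure D5:**
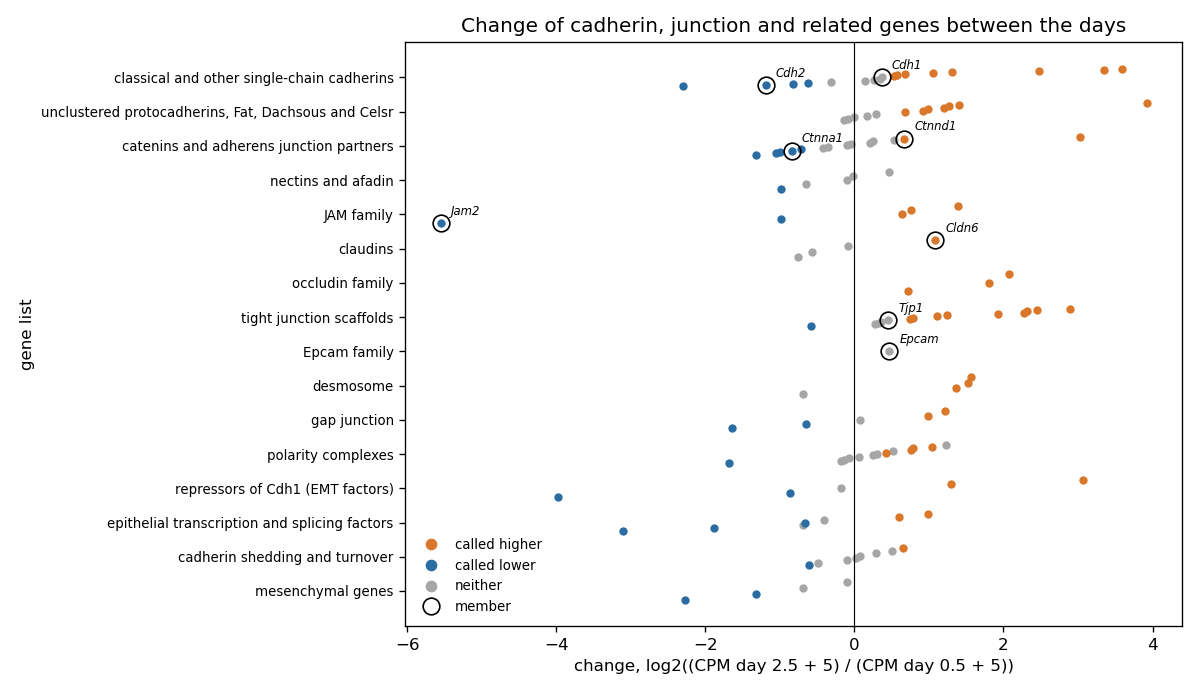
Change of each gene with 20 UMIs or more, as log2 of day 2.5 over day 0.5 with 5 CPM added to both, by list. Orange points were called higher, blue lower and grey neither, and black circles mark the 8 members. Jam2 lies alone at -5.55 while 3 of its family lie above 0, and tight junction scaffolds lie mostly above 0.

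For likeness over single cells, Pearson's r of log2(CPM + 100) was taken within each day over 7716 genes with 100 UMIs or more and averaged over the days. The highest average for Cdh1 and for Cdh2 was 0.23 each, below the 0.3 set for naming a gene. Jam2 came closest to Arl14epl, at 0.32, from 0.07 at day 0.5 and 0.57 at day 2.5. The day 2.5 value rests on 13 Jam2 UMIs in 8 cells, so it says little, and the average rests mostly on it. At day 0.5 Mcf2 (0.41) and Nr5a2 (0.27) had a higher r with Jam2, with averages of 0.292 and 0.295. Cells share library and depth, and no p is given.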

How the data were processed

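Expected counts of UMIs per gene and cell are what the authors' deposited expression table holds, judged from its headers and values. Of values above 0, 11.1% were fractions, and sums kept them. Per the file headers, the authors' cell tables add counts of UMIs, cell cycle classes, clusters, batch labels and a pseudotime score. The submitters' processing notes name GRCm38 as the build. No aligner, counter, strand setting or cell filter is stated there. Day comes from the labels, cell names from the titles, and 1101 table columns of no sample here stayed unused.

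Python 3.11.15 with scipy 1.17.1 gave sums, changes and intervals. Levels have exact Poisson intervals, ratios conditional ones, shares Clopper-Pearson and differences of shares Newcombe intervals. The rule for calls was tested on simulated data with counting error only, which lack the spread between cells, batches and cultures. Thinning drew each cell once, with fractions rounded at random, and a value of 1 or more counted as detected. No doublet caller was run on these libraries of 1 or 2 named cells. Named genes are all members and examples from each list, taken from the 4 with the most UMIs and called genes up to 8. Not all genes of that set are reported here. The members and lists were chosen with earlier results of these data known. Alternatives changed scaling, pseudocount, minimum, fold, thinning, letters and the cells used. Equal class weights and leaving out 1 cell were added after seeing the data.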

Additional observations from a re-analysis of the deposited data

How the results depend on the processing

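Cdh2, Jam2 and Ctnna1 stayed below day 0.5 in all 12 alternatives, and no called member turned its direction. Tjp1, not called, kept its sign in 11 of 12, with -0.022 in letter B. The number of members called higher was 4 under median-ratio scaling, 0 after thinning and 1 with cells of the allele table, with a fold of 2 or with a minimum of 100 UMIs. Under thinning, in the allele table, in letter B and within batch 2 Cldn6 had fewer than 20 UMIs and no call. In letter B and within batch 2 Epcam was called instead, and under thinning the ratio of Ctnnd1 was 1.37. The change of Cdh1 was 0.54 under median-ratio scaling, 0.49 in cells of the allele table and 0.56 with equal weight of 4 cell cycle classes. That of Cdh2 was -0.73 in letter B, -1.70 within batch 2 and -1.85 with equal class weights. That of Jam2 was -6.38 with a pseudocount of 1 CPM, and -5.10 in letter B. The pseudocount of 1 CPM also moved Cldn6 from 1.09 to 2.23, and with it the top of the members' range. The median change of the members was 0.58 under median-ratio scaling and 0.20 in letter B. Day 0.5 cells with both cadherins were 16.9% at a minimum of 2 UMIs, 19.6% after thinning and 26.2% in letter B, and day 2.5 cells 9.27%, 11.1% and 12.5%. Except where stated, the cause was not tested. No paired analysis was possible because each day is 1 sample without a test, and replicate numbers only name libraries. Counts limit Cldn6 and day 2.5 Jam2 most.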

Other observations

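Cells of the authors' allele table also carry a pseudotime score, and the members' levels are given here in 3 equal parts of that order within a day. At day 0.5, with 62 cells in each part, Jam2 was at 379, 436 and 470 CPM from the first to the last part, with intervals of 338 to 423 in the first and 425 to 516 in the last. Cdh1 was at 396, 307 and 345 CPM, and the intervals of its first and last parts overlap. At day 2.5, with 41, 40 and 41 cells, Cdh1 was highest in the middle part, at 465, 577 and 421 CPM, although the intervals of the first and middle parts overlap (410 to 524 and 522 to 637). Cdh2 was at 44.3, 39.3 and 32.4 CPM and Cldn6 at 3.55, 4.37 and 9.72 CPM, both with overlapping intervals throughout. How the score was made is not stated, and it may rest on the same RNA, so these values describe the order and do not test it.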
